A study of Mus musculus with 6 samples.

Results

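Transcripts of 36 genes of glucose breakdown and its control were followed in alveolar type 2 epithelial cells (AT2s) of the mouse lung, with and without a constitutively active bone morphogenetic protein (BMP) receptor. The rule that picks them, out of 24421 genes in the deposited count table, uses name and function and no measured value, but the set was drawn up with earlier results of these data known. They cover glucose uptake, the enzymes of glycolysis and their regulators, the making and export of lactate, the entry of pyruvate into mitochondria, the pentose phosphate pathway, and the proteins that set the level of the hypoxia-inducible factor HIF1A. Of the 36 genes, 35 passed the filter on low counts, as did 16723 genes of the table. The exception was *Eno1*.

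RNA was sequenced from sorted cells carrying the tdTomato lineage label, with 3 mice in each of 2 groups on the C57BL/6 background. The genotype of the controls, AT2CTRL, was Sftpc-CreERT2/+; R26-tdTomato/+, and that of the other group, AT2CAB, was Sftpc-CreERT2/+; R26-tdTomato/R26-caBmpr1a. The caBmpr1a allele encodes a form of the type I receptor BMPR1a that signals without ligand, and tamoxifen switches on both R26 alleles in cells in which the *Sftpc* promoter drives the recombinase. The comparison asked which transcripts of the pathway differ in AT2s once this receptor is active. Each group held 2 mice aged 12 weeks and 1 aged 16 weeks. The 2 alleles recombine separately, so a labeled AT2CAB cell can lack the active receptor, and nothing in the labels gives the share of such cells.

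In glycolysis, glucose is taken up, phosphorylated and split into pyruvate, with phosphofructokinase as the main point of control. Pyruvate then either enters mitochondria through the pyruvate dehydrogenase (PDH) complex, which PDH kinases switch off, or is turned into lactate by lactate dehydrogenase and leaves through monocarboxylate transporters, while the pentose phosphate pathway draws off glucose 6-phosphate to make NADPH. AT2s use NADPH and carbon from these routes to make surfactant lipid, they are known to oxidize lactate as a fuel, and many genes of glycolysis are targets of HIF1A.

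The 6 libraries held between 21554249 and 28440227 counts, and values are given as CPM, read counts scaled to library size with the trimmed-mean (TMM) method, so that 3 counts correspond to between 0.0976 and 0.138 CPM, a floor that covers counting error only. The BMP target *Id1* rose from 19.5 ± 1.17 CPM in AT2CTRL to 237 ± 153 CPM in AT2CAB (SD, n = 3), with 124, 177 and 411 CPM in AT2CAB replicates 1, 2 and 3 (adjusted p = 0.0172, edgeR). *Id3* and *Smad9* also rose, by 4.58 and 3.37 on the log2 scale (adjusted p = 0.00758 and 0.00289, edgeR). *Bmpr1a* itself had 120.0 ± 12.9 CPM in AT2CTRL and 119 ± 19.1 CPM in AT2CAB (SD, n = 3 each; log2 fold change -0.015, adjusted p = 0.983, edgeR), and whether its counts include reads from the transgene was not tested. The AT2 marker *Sftpc* was present in every library, with the lowest value at 42700 CPM. AT2CTRL replicate 1 and AT2CAB replicate 3 alone held reads on 4 Y-linked genes, at 172 and 158 CPM against 0 in the others, and principal component 1, with 49.9% of the variance, separated them from the rest. For the genes on which the results turn, values in the other 4 libraries (Y-negative) and the ratio within this Y-positive pair are therefore given beside the main values. The summed level of 16 immune markers was 77, 80.6 and 86.2 CPM in the AT2CTRL libraries and 181, 108 and 71.5 CPM in the AT2CAB libraries. Sums of 12 endothelial and 12 mesenchymal markers ranged from 497 to 818 and from 187 to 296 CPM in AT2CTRL, and from 715 to 1093 and from 364 to 451 CPM in AT2CAB, while the AT2 marker sum ranged from 157071 to 173613 CPM and from 113731 to 138804 CPM. In log2 fold change, 11 of the 12 endothelial and all 12 mesenchymal markers were above 0 and 11 of the 15 AT2 markers below 0. At an unadjusted p under 0.05 in edgeR, 7 endothelial, 4 mesenchymal, 1 immune and 1 AT2 marker were higher, against 4.62% of all genes. At that threshold 6 AT2 markers were lower, against 5.05% of all genes. The sum of 8 airway markers was 613, 745 and 532 CPM in AT2CTRL and 708, 1039 and 1095 CPM in AT2CAB. Of 7 tested, 5 were above 0 and 1 was called higher by edgeR at an adjusted p under 0.05, against 0.251% of all genes. The part of these lists in the values that follow was not tested. No immune, endothelial, mesenchymal or AT2 marker was at 0 in all libraries. In such bulk samples fewer cells of a type and less RNA per cell cannot be told apart.

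No gene among the 35 tested passed a Benjamini-Hochberg adjusted p of 0.05, computed over all genes by edgeR's quasi-likelihood test, against 0.251% of all genes tested, and their adjusted p-values ran from 0.219 to 0.979. At an unadjusted p under 0.05, where 9.67% of all genes lay, there were 6 of the 35 genes (17.1%). *Slc2a3*, *Pfkfb3* and *Slc16a3* were higher in AT2CAB, and *Ldhb*, *Slc16a1* and *Pdk1* were lower. For 9 genes (25.7%) the 3 AT2CAB libraries lay on one side of the 3 AT2CTRL libraries, which held for 17.1% of all genes. These were the same 6 with *Pdk3* and *Egln3*, which were higher in AT2CAB, and *Vhl*, which was lower. In the Y-negative libraries alone, 2 against 2, the groups did not overlap for 16 of the 35, against 46.4% of all genes. The median log2 fold change of the 35 genes was -0.060, with 17 above 0 and 18 below, and the median over all genes tested was -0.0096.

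Most of the pathway was measured closely. The standard error of the log2 fold change had a median of 0.15 over the 35 genes, and for 28 of them the 95% interval lay within a 2-fold difference in either direction, which 60.1% of all genes reached. For 20 of them it lay within 1.5-fold. The 9 genes without overlap included 3 of the 4 lactate genes and 2 of the 4 genes at pyruvate entry, against 17.1% of all genes, as the plot of changes by gene shows. The others were *Slc2a3*, *Pfkfb3*, *Vhl* and *Egln3*. Groups this small can hold such numbers with no gene called. Whether the lactate and pyruvate steps differ from the rest of the pathway was not tested.

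**Figure D1:**
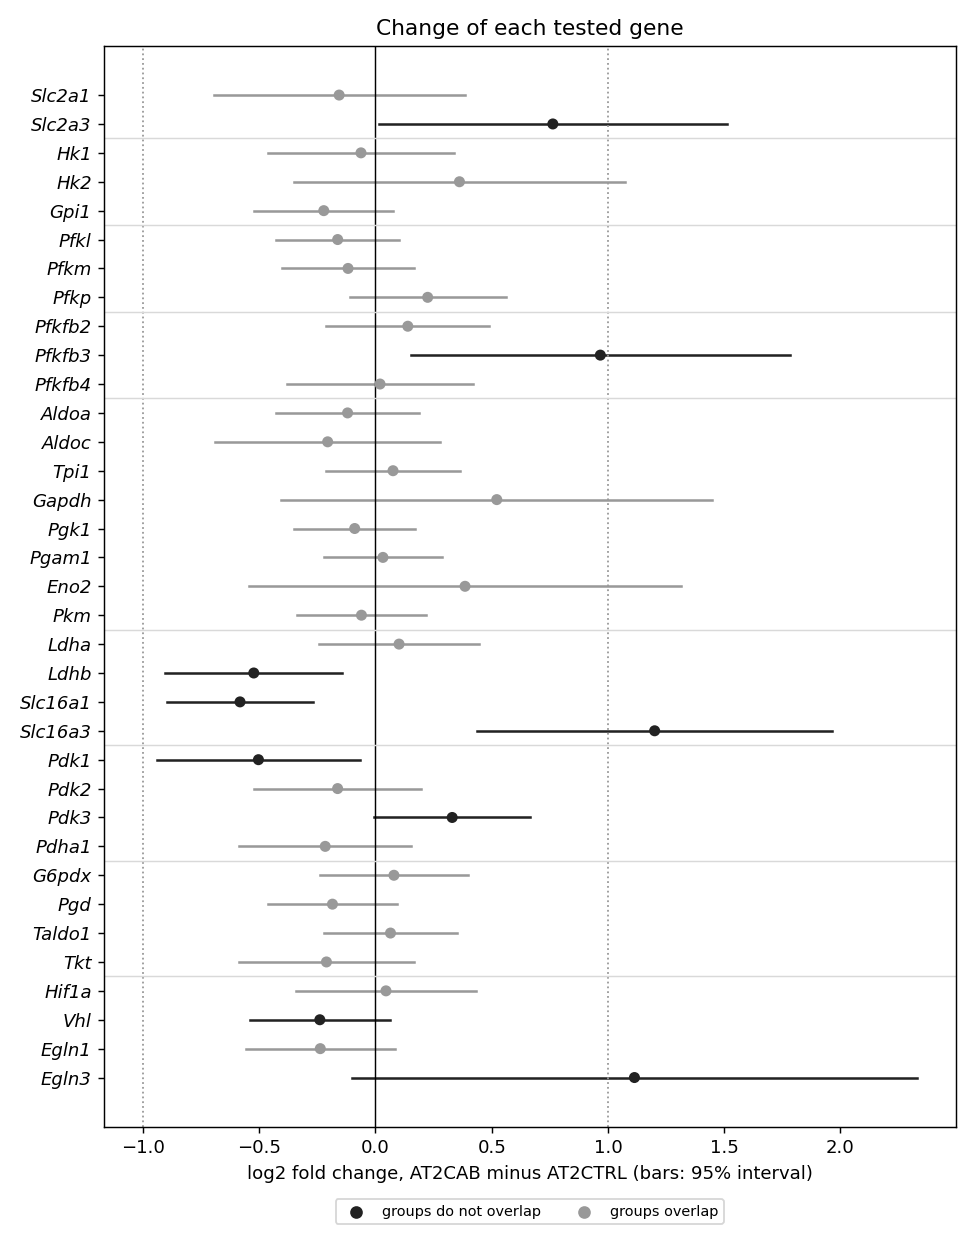
Log2 fold change of each of the 35 tested genes, AT2CAB minus AT2CTRL (points), with its 95% interval from edgeR (bars); grey horizontal lines separate roles in the pathway from glucose uptake at the top to hypoxia control at the bottom, and dotted lines mark a 2-fold difference. Dark points are the 9 genes whose groups do not overlap, from *Slc16a1* at -0.58 to *Slc16a3* at 1.20.

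Levels per kilobase of gene length, in CPM per kb averaged over the 6 libraries, were led by enzymes of lower glycolysis and lactate. The highest was *Ldha* at 230.4, followed by *Aldoa* at 214, *Pkm* at 157 and *Ldhb* at 155. This order differed between the groups, with 223 for *Aldoa*, 222 for *Ldha*, 183 for *Ldhb* and 159.9 for *Pkm* in AT2CTRL, and 238 for *Ldha*, 205 for *Aldoa*, 153 for *Pkm* and 127 for *Ldhb* in AT2CAB. Next came *Tkt* at 102, *Tpi1* at 92.7, *Pgd* at 87.1, *Taldo1* at 85.8 and *Gpi1* at 79.6 CPM per kb, so that 3 of the 4 pentose phosphate genes stood among the 9 highest. *Pfkfb4* at 59.2, *Pfkfb2* at 48.7 and *Egln1* at 42.5 CPM per kb completed the first 12. The lowest tested genes were *Egln3* at 0.241, *Eno2* at 0.686 and *Slc2a3* at 1.05 CPM per kb. Neighbors in this order, such as *Ldha* and *Aldoa* in AT2CTRL or *Pgd* and *Taldo1*, differed by less than the spread between libraries.

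The counting can understate some of these levels. Reads that fell on 2 genes were left out, and part of several transcripts is repeated in other genes, from which reads cannot be placed with certainty. Of the 50-base stretches of its transcripts, 68% occur in other genes for *Pgk1*, 58.4% for *Gapdh*, 49.5% for *Eno1* and 41.5% for *Pgam1*. *Gapdh*, the glyceraldehyde 3-phosphate dehydrogenase that is a common reference gene, stood at only 3.55 CPM per kb, and *Eno1*, the main enolase, had at most 2 counts in any library, with 92.8% of its exon bases shared with the table's *Eno1b*. The levels of these 4 genes are uncertain, and how much each lost was not tested. Levels of other genes can be understated too. Of the exon bases of *Pdha1*, 21.8% overlap *Map3k15*. Of the 50-base stretches, 25% occur in other genes for *Pfkfb2*, 24.5% for *Gpi1* and 23.7% for *Pkm*. The share was 0% for *Slc16a1*, *Slc16a3*, *Pdk1*, *Pdk2*, *Pdk3*, *Slc2a3*, *Hk2*, *Vhl* and *Egln3*, 0.530% for *Pfkfb3*, 10.4% for *Ldha* and 21% for *Ldhb*, which shares them with 1 gene.

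**Figure D2:**
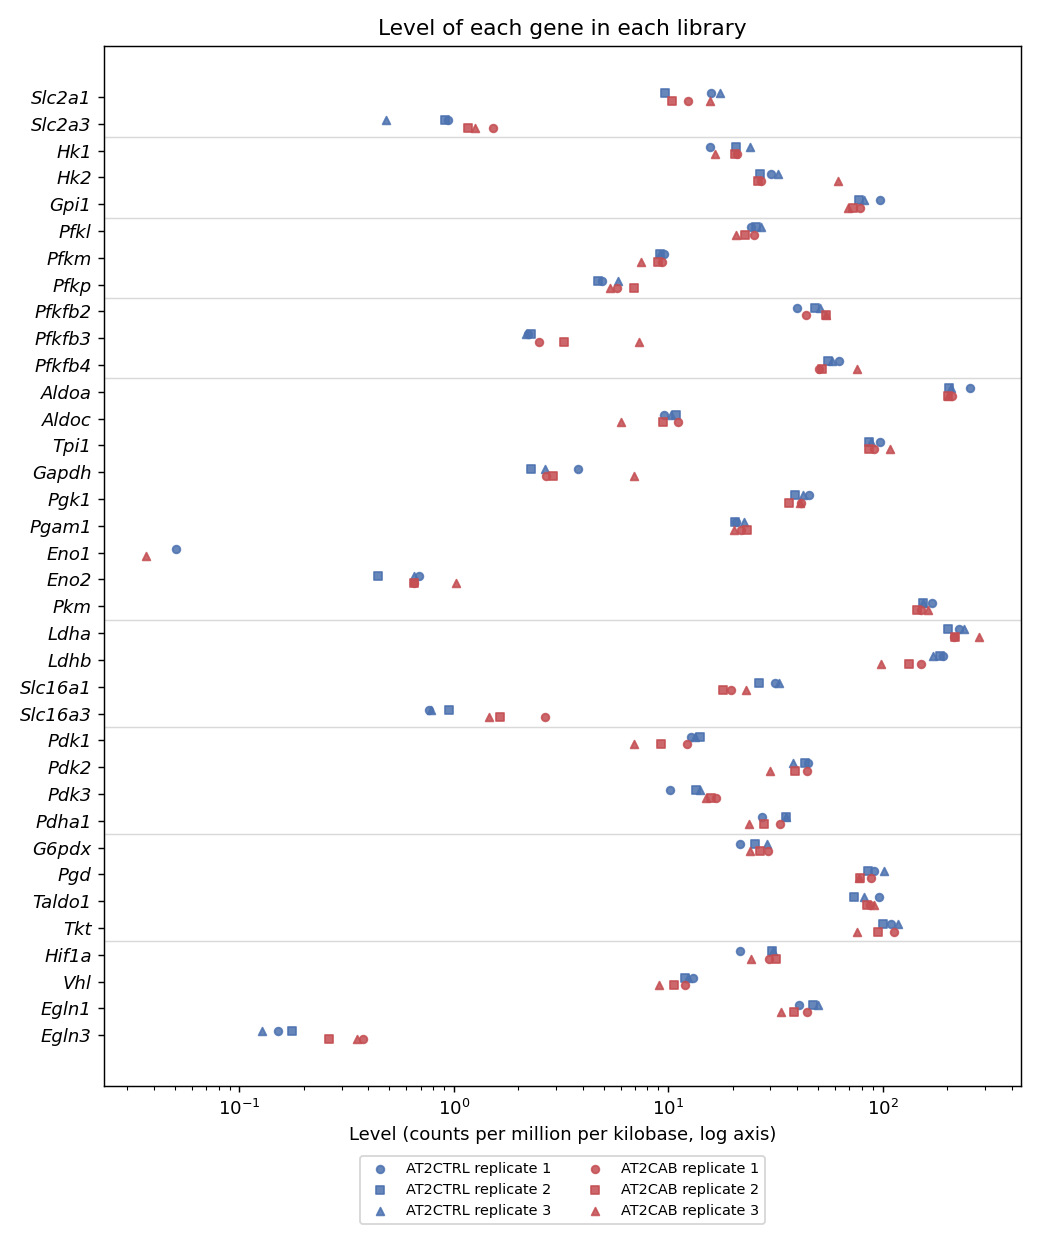
Level of each of the 36 genes in each library, in CPM per kilobase on a log axis, with AT2CTRL in blue, AT2CAB in red and a symbol for each replicate; values of 0 (*Eno1* in 4 libraries) are not drawn. *Ldha*, *Aldoa*, *Pkm* and *Ldhb* stand highest, and *Eno1*, whose exons overlap those of another gene, stands lowest.

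Glucose enters through the facilitative transporters GLUT1, encoded by *Slc2a1*, and GLUT3, encoded by *Slc2a3*. *Slc2a1* had 36.8 ± 10.6 CPM in AT2CTRL and 33 ± 6.84 CPM in AT2CAB (SD, n = 3). *Slc2a3* had 3.72, 3.60 and 1.90 CPM in AT2CTRL replicates 1, 2 and 3, and 6.05, 4.62 and 4.98 CPM in AT2CAB replicates 1, 2 and 3. Every AT2CAB library was above every control, by a margin smaller than the range within the controls. The log2 fold change was 0.76 (95% interval 0.014 to 1.51, adjusted p = 0.508 from edgeR's test), and per kilobase it stayed under *Slc2a1*, with 1.32 against 12.8 CPM per kb in AT2CAB. Without AT2CTRL replicate 3, the lowest control, the log2 fold change was 0.51. The Y-negative libraries gave 0.99, and the ratio within the Y-positive pair was 1.34. The immune marker sum given above was also higher in AT2CAB replicates 1 and 2 than in the controls, but lower in replicate 3. The mesenchymal marker sum was higher in every AT2CAB library (364, 451 and 380 CPM) than in any control (187, 296 and 265 CPM). The endothelial sum overlapped between the groups. The part of other cells in these low counts was not tested.

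Hexokinases trap glucose in the cell by phosphorylating it. *Hk1* had 91 ± 19.3 and 87.2 ± 11 CPM in the 2 groups. *Hk2*, the inducible form, had 166, 148 and 180.0 CPM in the AT2CTRL libraries and 149.7, 145 and 339.7 CPM in the AT2CAB libraries. AT2CAB replicate 3 was above all others, while replicates 1 and 2 lay within or under the control range. Its difference was 0.36 on the log2 scale (SE 0.31, adjusted p = 0.735, edgeR) with that library and -0.12 without it, so the direction of the difference rested on 1 library. *Gpi1*, glucose-6-phosphate isomerase, had 281, 224 and 237 CPM in AT2CTRL and 227, 209 and 200.1 CPM in AT2CAB, and the groups overlapped (log2 fold change -0.22, adjusted p = 0.623, edgeR).

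Phosphofructokinase is made of liver, muscle and platelet subunits. *Pfkl* had 95.6 ± 5.20 and 85.4 ± 8.28 CPM in AT2CTRL and AT2CAB, *Pfkm* had 28.4 ± 0.667 and 26.2 ± 2.95 CPM, and *Pfkp* had 21.6 ± 2.46 and 25.3 ± 3.36 CPM (SD, n = 3). All 3 overlapped between groups. Per kilobase, the platelet form made up 12.8% ± 0.960 of the transcripts of these 3 genes in AT2CTRL and 16.1% ± 1.77 in AT2CAB. The liver form made up 64% ± 1.17 and 61.1% ± 1.84. These shares did not overlap between the groups, but only narrowly. For *Pfkl* the lowest control had 62.7% and the highest AT2CAB library 62.6%. For *Pfkp* the highest control had 13.8% and the lowest AT2CAB library 14.4%.

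The PFKFB enzymes make and remove fructose 2,6-bisphosphate, the activator of phosphofructokinase, and PFKFB3 is the form with the highest kinase activity. *Pfkfb3* had 11.7, 12.2 and 11.5 CPM in the AT2CTRL libraries and 13.2, 17.2 and 38.5 CPM in the AT2CAB libraries. The controls lay within 1 CPM of each other, all AT2CAB libraries were above them, and replicate 3 stood 2.53-fold above the mean of the other two. The log2 fold change was 0.97 (95% interval 0.15 to 1.78, adjusted p = 0.443, edgeR). It was 0.41 without AT2CAB replicate 3 and 0.40 in the Y-negative libraries, and the ratio within the Y-positive pair was 3.29.

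*Pfkfb4* and *Pfkfb2* were far more abundant. *Pfkfb4* had 211, 187 and 195 CPM in AT2CTRL and 169.6, 175 and 257 CPM in AT2CAB, where replicate 3 was again above and replicates 1 and 2 below all controls. *Pfkfb2* had 383, 464 and 492 CPM and 423, 526 and 526 CPM, in overlapping groups. Of the transcripts of the 3 PFKFB genes per kilobase, *Pfkfb3* held 2.11, 2.17 and 1.95% in the AT2CTRL libraries and 2.58, 2.96 and 5.27% in the AT2CAB libraries.

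In lower glycolysis none of the 8 tested genes separated the groups. *Aldoa*, the main aldolase, had 469, 373 and 378 CPM in AT2CTRL and 386, 367 and 369 CPM in AT2CAB. *Tpi1*, triosephosphate isomerase, had 155, 138 and 141 and 146, 138 and 173 CPM, and *Pkm*, the pyruvate kinase that makes pyruvate, had 444, 402 and 400.4 and 394, 378 and 424 CPM. For these 3 abundant enzymes the groups overlapped throughout and each 95% interval lay within 1.5-fold. *Aldoc* (29.3 ± 1.96 and 25.5 ± 7.54 CPM), *Pgk1* (77.3 ± 5.71 and 72.7 ± 5.37 CPM), *Pgam1* (39.1 ± 1.99 and 39.9 ± 2.89 CPM) and *Eno2* (1.67 ± 0.370 and 2.17 ± 0.598 CPM) overlapped as well. *Gapdh* had 5.69, 3.43 and 4 CPM in AT2CTRL and 4.03, 4.34 and 10.4 CPM in AT2CAB, and its log2 fold change of 0.52 (adjusted p = 0.705, edgeR) turned to -0.018 without AT2CAB replicate 3.

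The lactate genes held the 3 lowest p-values of the pathway. Lactate dehydrogenase is a tetramer of LDHA subunits, which favor the making of lactate, and LDHB subunits, which favor its use. The transporter MCT1, encoded by *Slc16a1*, moves lactate in either direction, and MCT4, encoded by *Slc16a3*, is known for lactate export from glycolytic cells. For these 4 genes, none of which passed the adjusted threshold, the 250 bases before each RefSeq transcript start are shown. They are given on the gene's own strand in build GRCm38.p6. Capitals mark ACGTG, the core of the hypoxia response element (6 capitals where it stands as CACGTG, which holds it on both strands), and GGCGCC, a run of G and C letters, both searched on either strand.
Ldha, chr7:46845554-46845803, plus strand: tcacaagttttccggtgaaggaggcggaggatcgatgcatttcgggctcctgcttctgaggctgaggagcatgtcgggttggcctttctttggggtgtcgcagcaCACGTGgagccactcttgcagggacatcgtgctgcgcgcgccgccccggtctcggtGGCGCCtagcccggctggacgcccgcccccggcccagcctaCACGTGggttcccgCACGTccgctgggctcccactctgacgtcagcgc
Ldhb, chr6:142507958-142508207, minus strand: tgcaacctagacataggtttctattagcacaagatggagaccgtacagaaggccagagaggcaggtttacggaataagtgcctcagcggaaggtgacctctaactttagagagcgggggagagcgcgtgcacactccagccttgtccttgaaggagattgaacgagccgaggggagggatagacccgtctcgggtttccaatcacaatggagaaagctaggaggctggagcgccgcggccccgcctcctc
Slc16a1, chr3:104638414-104638663, plus strand: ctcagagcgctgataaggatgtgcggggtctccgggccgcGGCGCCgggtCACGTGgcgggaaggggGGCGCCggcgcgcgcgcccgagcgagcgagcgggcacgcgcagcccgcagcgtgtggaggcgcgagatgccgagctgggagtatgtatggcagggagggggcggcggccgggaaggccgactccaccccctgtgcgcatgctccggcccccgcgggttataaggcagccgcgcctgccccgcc
Slc16a3, chr11:120948817-120949066, plus strand: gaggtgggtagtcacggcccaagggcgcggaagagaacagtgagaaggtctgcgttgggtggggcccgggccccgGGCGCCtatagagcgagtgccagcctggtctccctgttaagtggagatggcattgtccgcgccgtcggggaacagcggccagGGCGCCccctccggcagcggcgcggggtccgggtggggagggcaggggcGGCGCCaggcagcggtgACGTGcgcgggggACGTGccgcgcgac
The *Slc16a3* window lies inside the span of the gene in the count table, which also lists an earlier start. ACGTG stood at 3 places in the *Ldha* window, 1 in that of *Slc16a1*, 2 in that of *Slc16a3* and none in that of *Ldhb*. In all, 14 of the 35 genes with a RefSeq promoter (40%) held it, against 16.6% of 32851 promoters and 20.5% of those of 12502 tested genes. For the 35 genes the promoter nearest the start in the count table was taken, and for tested genes the first listed. The 32851 can hold several promoters of a gene, so these choices differ. The start used for *Pfkfb2* was 13205 bases from that in the count table. GGCGCC was in 11 of the 35 (31.4%), against 9.59% of all promoters and 15.5% of those of tested genes. A match describes letters in these windows and is not evidence of binding.

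*Slc16a1* lies on chromosome 3 from 104638664 to 104658462 in mm10. It had 139.8, 118 and 145 CPM in AT2CTRL replicates 1, 2 and 3 and 87.1, 79.5 and 102 CPM in AT2CAB replicates 1, 2 and 3. Every AT2CAB library was below every control, with a gap of about the size of the spread within a group. For *Slc16a1* the log2 fold change was -0.58 (SE 0.14, 95% interval -0.90 to -0.27), with an unadjusted p of 0.00263 and an adjusted p = 0.219 in edgeR's test, the lowest among the 35 genes. It ran from -0.67 to -0.49 with each library left out in turn, was -0.63 in the Y-negative libraries, and the ratio of AT2CAB to AT2CTRL within the Y-positive pair was 0.730. *Slc16a1* passed the threshold with DESeq2 (adjusted p = 0.0224), where 2.09% of the genes given an adjusted p did, and with Y-linked reads as a covariate in edgeR (adjusted p = 0.0311), where 2.53% did.

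*Slc16a3*, which lies on chromosome 11 from 120948484 to 120959000, was a low transcript with 1.97, 2.44 and 2.02 CPM in the AT2CTRL libraries and 6.83, 4.23 and 3.78 CPM in the AT2CAB libraries. The controls lay close together and all AT2CAB libraries were above them, replicate 1 the most. The log2 fold change was 1.20 (95% interval 0.44 to 1.96), with an unadjusted p of 0.00651 and an adjusted p = 0.306 in edgeR, and adjusted p = 0.0385 in DESeq2. Within the Y-positive pair the ratio was 1.91, and the Y-negative libraries gave 1.34 on the log2 scale. The summed immune markers had the same order over the AT2CAB libraries, and 15 of the 16 were above 0 in log2 fold change. Of these, 1 had an unadjusted p under 0.05 in edgeR, where 4.62% of all genes were higher. That sum was higher than in the controls in AT2CAB replicates 1 and 2 and lower in replicate 3. The mesenchymal marker sum was higher in all AT2CAB libraries (364, 451 and 380 CPM) than in any control (187, 296 and 265 CPM), while the endothelial sum overlapped. The part of other cells in the *Slc16a3* difference was not tested.

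*Ldhb*, which lies on chromosome 6 from 142490249 to 142507957, had 249, 242 and 224 CPM in AT2CTRL and 197, 173 and 128 CPM in AT2CAB. The groups did not overlap, and AT2CAB replicate 3 was lowest. For *Ldhb* the log2 fold change was -0.52 (95% interval -0.90 to -0.14, unadjusted p of 0.0130 and adjusted p = 0.377, edgeR), and -0.33 without AT2CAB replicate 3. The Y-negative libraries gave -0.30, and the ratio within the Y-positive pair was 0.512.

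*Ldha*, which lies on chromosome 7 from 46845804 to 46855627, had 438, 388 and 461 CPM in AT2CTRL and 417, 421 and 543 CPM in AT2CAB. The groups overlapped, with AT2CAB replicate 3 above all others, and the log2 fold change was 0.10 (95% interval -0.24 to 0.45, adjusted p = 0.859, edgeR), ranging from 0.0044 to 0.19 with each library left out. The share of *Ldhb* among the transcripts of *Ldha* and *Ldhb* per kilobase was 45.7, 48 and 41.9% in the AT2CTRL libraries and 41.1, 37.9 and 25.8% in the AT2CAB libraries, without overlap. The share of *Slc16a3* among the transcripts of *Slc16a1* and *Slc16a3* was 2.37, 3.45 and 2.34% and 11.9, 8.38 and 5.97%, also without overlap, although *Slc16a1* still made up most of the pair in every library. Of the same family, *Slc16a7*, which is not among the 36 genes, stood at 12.6 CPM per kb and is left out of this share.

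**Figure D3:**
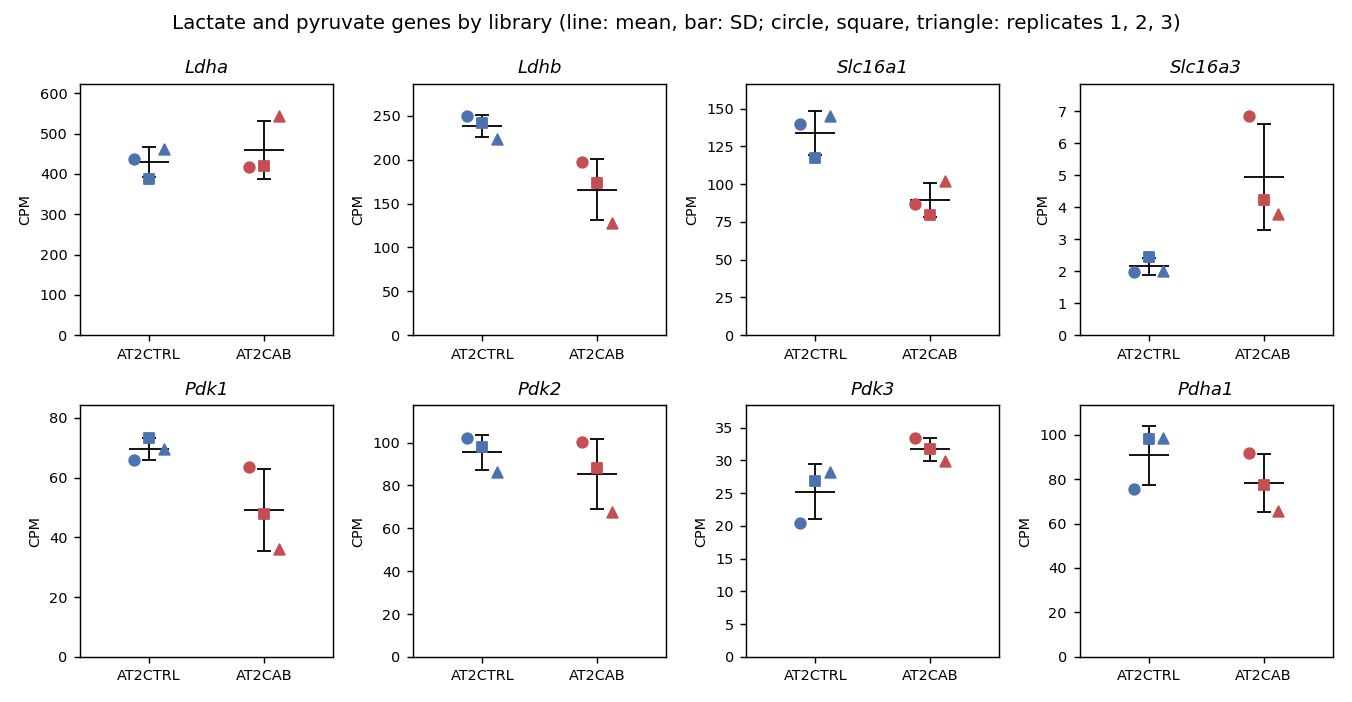
CPM of 8 lactate and pyruvate genes in each library (circle, square and triangle for replicates 1, 2 and 3), with the group mean (line) and SD (bar, n = 3). *Ldhb*, *Slc16a1* and *Pdk1* lie lower and *Slc16a3* and *Pdk3* higher in all 3 AT2CAB libraries, while *Ldha*, *Pdk2* and *Pdha1* overlap.

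PDH kinases phosphorylate the E1 alpha subunit of the PDH complex, encoded by *Pdha1*, and so hold pyruvate back from the mitochondria. *Pdk1*, the kinase known as a HIF1A target, had 65.9, 73.2 and 69.5 CPM in AT2CTRL and 63.4, 47.8 and 36.1 CPM in AT2CAB. All AT2CAB libraries were below all controls, but replicate 1 only just. The log2 fold change was -0.50 (95% interval -0.94 to -0.066, unadjusted p of 0.0289 and adjusted p = 0.455, edgeR), and -0.29 without AT2CAB replicate 3. The Y-negative libraries gave -0.33, with a ratio of 0.547 within the Y-positive pair.

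*Pdk3*, a kinase little inhibited by pyruvate, stood the other way, with 20.4, 26.9 and 28.3 CPM in AT2CTRL and 33.4, 31.7 and 29.9 CPM in AT2CAB. The AT2CAB libraries lay close together above the controls, and AT2CTRL replicate 1 was lowest. Its log2 fold change was 0.33 (95% interval -0.0064 to 0.67, adjusted p = 0.526, edgeR), and 0.19 without AT2CTRL replicate 1. The Y-negative libraries gave 0.27, with a ratio of 1.47 within the Y-positive pair. *Pdk2*, the most abundant of the 3 at 39.9 CPM per kb, had 95.5 ± 8.09 and 85.3 ± 16.3 CPM, and *Pdha1* had 90.7 ± 13.2 and 78.1 ± 13.1 CPM, both with overlap.

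Within the 3 kinases, the share of *Pdk1* was 19.7% ± 0.878 in AT2CTRL and 14.8% ± 1.70 in AT2CAB (SD, n = 3), and that of *Pdk3* was 18.5% ± 3.28 and 25.5% ± 3.07. The groups did not overlap in either. Among 15 such shares computed over 9 gene families, 7 did not overlap between groups, those of *Ldhb*, *Slc16a3*, *Pdk1*, *Pdk3*, *Pfkfb3*, *Pfkl* and *Pfkp*. Of single genes, 17.1% did not overlap, and no such share was computed for other families. All but *Pfkl* and *Pfkp*, which share a family, were already among the pathway genes without overlap. The exact permutation p of these 7 shares was 0.1, the smallest that 3 libraries against 3 allow, and 0.214 after Benjamini-Hochberg adjustment over the 15. The share of *Hk2* did overlap, at 65.9, 56.3 and 57.5% and 56.4, 56.2 and 78.8%. Each share is taken among the genes of the set of 36, so that *Hkdc1* at 26.8 and *Pdk4* at 2.36 CPM per kb, for example, are left out. Shares within a family are tied to each other, and that of *Eno2* has no meaning here because *Eno1* was not counted.

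**Figure D4:**
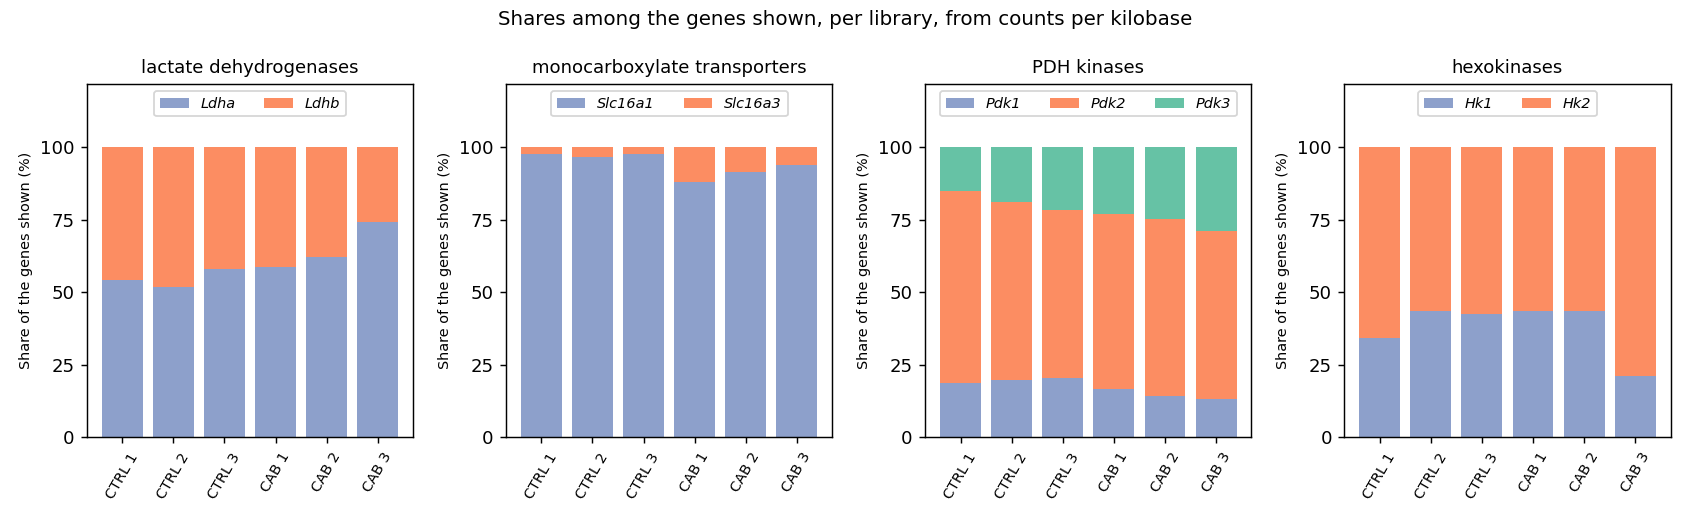
Share of each gene among the lactate dehydrogenases, monocarboxylate transporters, PDH kinases and hexokinases shown, in each library, from counts per kilobase (stacked bars adding to 100% of the genes shown, not of whole families, since *Hkdc1*, *Slc16a7* and *Pdk4* are left out). *Ldhb* makes up 25.8% of its pair in AT2CAB replicate 3, *Slc16a3* holds more of its pair in every AT2CAB library than in any control, and *Hk2* stands out in AT2CAB replicate 3 alone.

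Other genes of the same pathways gave the context for these steps. Of 52 further genes of glucose transport, glycolysis, pyruvate handling and the pentose phosphate pathway, 49 were tested, none was called in edgeR's test at the adjusted threshold, and their median log2 fold change was -0.089. At an unadjusted p under 0.05, none was higher, against 4.62% of all genes, and 5 were lower, against 5.05%. The groups did not overlap for 12 of the 49 genes, 1 higher and 11 lower, against 17.1% of all genes, of which 7% were higher and 10.1% lower. The 5 genes are named here after their values were seen. *Dld*, the dihydrolipoamide dehydrogenase of the PDH complex, had 71.9, 74.9 and 73.9 CPM in AT2CTRL and 62.3, 60.4 and 48.5 CPM in AT2CAB (log2 fold change -0.37, adjusted p = 0.411, edgeR). *Pdhx*, which holds that subunit in the complex, had 30, 25.8 and 32.4 and 25.4, 23.7 and 18.1 CPM (-0.39 on the log2 scale). Both were lower in every AT2CAB library than in any control, and without AT2CAB replicate 3 the log2 fold changes were -0.22 for *Dld* and -0.22 for *Pdhx*. *Pdp1* and *Pdp2* encode the phosphatases that undo the work of the PDH kinases. *Pdp1* had 10, 12.1 and 10.9 and 9.08, 7.99 and 7.10 CPM (-0.45 on the log2 scale, adjusted p = 0.453, edgeR), and *Pdp2* had 16.1, 20.7 and 20.7 and 14.9, 15.4 and 15.1 CPM (-0.34, adjusted p = 0.499, edgeR). Neither overlapped between the groups. *Rpia*, ribose 5-phosphate isomerase of the pentose phosphate pathway, had 33.4, 29 and 28.7 and 26.9, 20.9 and 21.2 CPM (-0.40, adjusted p = 0.422, edgeR). The lower genes at pyruvate entry included a kinase, *Pdk1*, and both of the opposing phosphatases, and none of these differences passed the adjusted threshold.

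The pentose phosphate pathway makes NADPH in its first part, through glucose-6-phosphate dehydrogenase (*G6pdx*) and phosphogluconate dehydrogenase (*Pgd*), and returns carbon to glycolysis through transaldolase (*Taldo1*) and transketolase (*Tkt*). *Pgd* had 203, 190.4 and 225 CPM in AT2CTRL and 196, 175 and 173 CPM in AT2CAB. *Taldo1* had 123, 94.2 and 104 and 112, 108 and 116 CPM. *Tkt* had 354, 326 and 382 and 366, 307 and 246 CPM, with AT2CAB replicate 3 the lowest of all libraries. The groups overlapped for each, as they did for *G6pdx* (66.2 ± 9.42 and 70 ± 6.89 CPM), and the log2 fold changes of the 4 genes lay between -0.21 and 0.079. The 95% intervals excluded a 2-fold difference for all 4, and were -0.46 to 0.091 for *Pgd* and -0.59 to 0.16 for *Tkt*.

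Under normal oxygen the prolyl hydroxylases encoded by *Egln1* and *Egln3* mark HIF1A, and VHL directs the marked protein to breakdown. *Hif1a* itself had 131 ± 24.5 CPM in AT2CTRL and 136 ± 18.4 CPM in AT2CAB. *Egln1*, the main hydroxylase, had 144, 166 and 175 CPM and 156, 137 and 119 CPM, and the groups overlapped (log2 fold change -0.24, adjusted p = 0.624, edgeR). *Vhl* had 35.6, 32.8 and 33.8 CPM in AT2CTRL and 32.8, 29.1 and 24.8 CPM in AT2CAB. Its groups were separated by less than 0.1 CPM, between AT2CTRL replicate 2 and AT2CAB replicate 1. Its log2 fold change was -0.24 (adjusted p = 0.606, edgeR), and -0.10 without AT2CAB replicate 3. The Y-negative libraries gave -0.075, and the ratio within the Y-positive pair was 0.696.

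*Egln3*, which is itself induced by HIF1A, was near the lowest level measured, with 0.404, 0.471 and 0.343 CPM in AT2CTRL and 1.01, 0.698 and 0.944 CPM in AT2CAB. The AT2CAB libraries were all higher, and the 95% interval of the log2 fold change of 1.11 ran from -0.10 to 2.33 (adjusted p = 0.552, edgeR). The Y-negative libraries gave 1.09, and the Y-positive pair a ratio of 2.34. Of 6 further regulators of the hypoxia response, none had an unadjusted p under 0.05, and their median log2 fold change was -0.11. Of 25 HIF targets outside glycolysis, none passed the adjusted threshold, 1 was higher and 4 were lower at an unadjusted p under 0.05, against 4.62% and 5.05% of all genes, and the median was -0.11. The groups did not overlap for 1 of the 25 on the higher and 4 on the lower side, against 7% and 10.1% of all genes. The 3 genes with an unadjusted p under 0.01, the limit set for naming genes of this list, are described here, and the other two lower ones, named after their values were seen, were *Higd1a* (47.7, 50.5 and 53.8 CPM in AT2CTRL, 41.1, 40.4 and 38.6 CPM in AT2CAB) and *Angptl4* (35.1, 29.2 and 10.4 CPM and 15.5, 10.7 and 11.7 CPM), of which *Higd1a* did not overlap between groups. *Plod2*, a lysyl hydroxylase of collagen, had 5.60, 8.06 and 6.97 CPM in AT2CTRL and 9.31, 12.6 and 11.8 CPM in AT2CAB (log2 fold change 0.71, adjusted p = 0.323, edgeR). *P4ha1*, a prolyl hydroxylase of collagen, had 225, 235 and 230.2 and 174, 164 and 188 CPM (-0.39, adjusted p = 0.318, edgeR), and the nuclear receptor gene *Rora* had 87.1, 85 and 83.2 and 67.2, 64.3 and 64.9 CPM (-0.38, adjusted p = 0.268, edgeR). The groups did not overlap for any of the 3.

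The spread among the libraries of a group was described by the coefficient of variation, without a test. The coefficient of variation had a median of 9.97% in AT2CTRL and 13.6% in AT2CAB over the 35 genes, and it was larger in AT2CAB for 23 of them (65.7%), against 47% of all genes, whose medians were 17.7% and 16.8%. AT2CAB replicate 3 was the lowest of the 6 libraries for 13 of the 35 genes (37.1%, against 26.8% of all genes) and the highest for 8 (22.9%, against 27.5%). Against the mean of AT2CAB replicates 1 and 2 it stood 2.31-fold for *Hk2*, 2.53-fold for *Pfkfb3*, 2.48-fold for *Gapdh* and 1.49-fold for *Pfkfb4*, and at 0.690 for *Ldhb*, 0.648 for *Pdk1* and 0.583 for *Aldoc*, genes picked here for the size of that ratio. The same library had the highest *Id1* and the highest sum of 7 BMP targets (864, 1180 and 1897 CPM in AT2CAB replicates 1, 2 and 3), the lowest AT2 marker sum, and the reads on Y-linked genes. What part any of these has in its values was not tested.

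**Figure D5:**
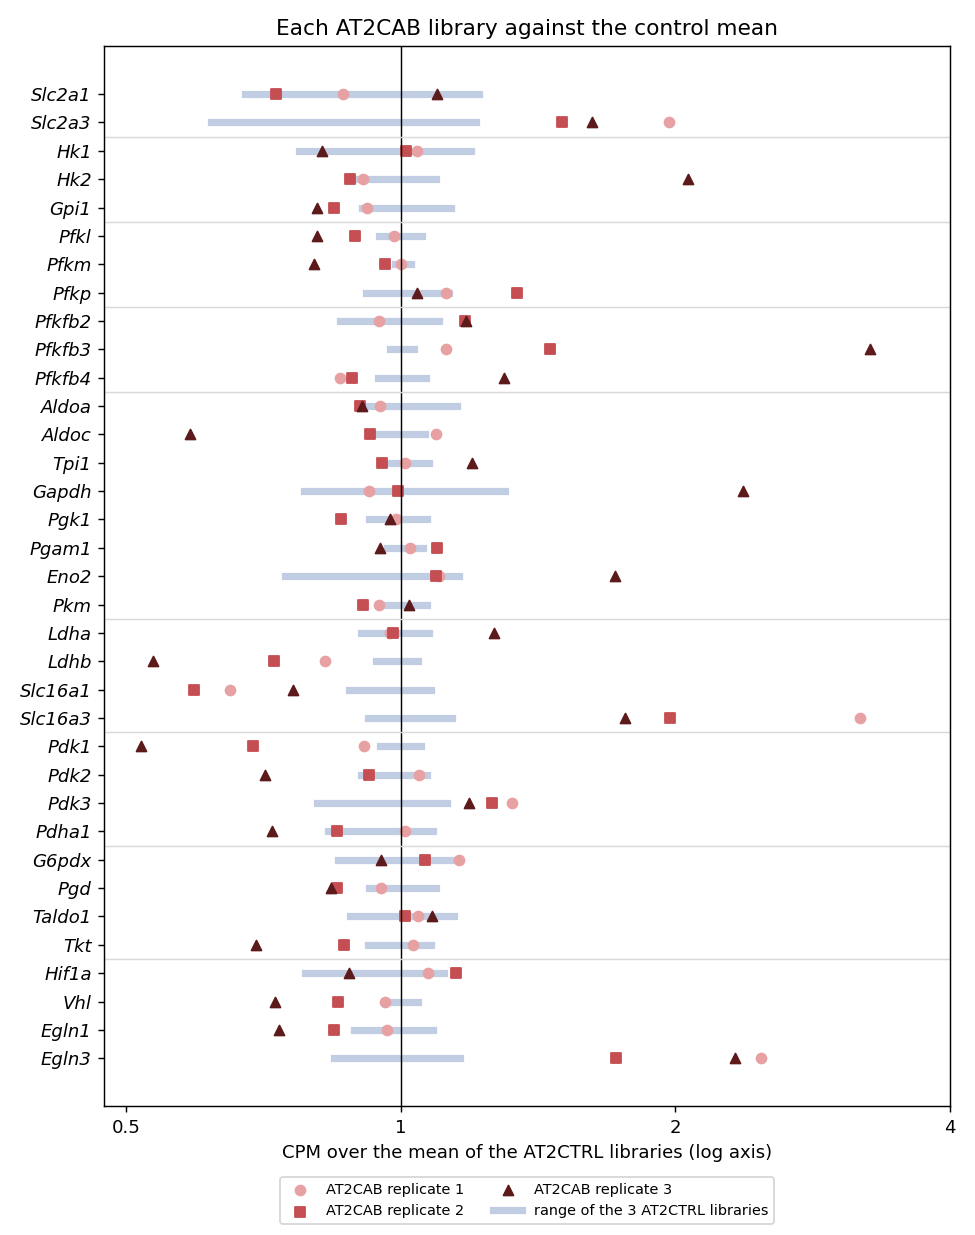
CPM of each of the 35 tested genes in each AT2CAB library, divided by the mean of the AT2CTRL libraries (log axis); blue bars span the 3 AT2CTRL libraries and symbols mark AT2CAB replicates 1, 2 and 3. Replicate 3 lies furthest from the control mean for *Hk2*, *Pfkfb3*, *Gapdh*, *Ldhb* and *Pdk1*, and replicate 1 for *Slc16a3*. All replicates lie on the same side of that mean for *Pfkfb3*, *Ldhb*, *Pdk1*, *Slc16a1* and *Slc16a3*, but not for *Hk2* and *Gapdh*.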

How the data were processed

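RNA from sorted AT2s of 3 AT2CTRL and 3 AT2CAB mice was sequenced, and the groups and replicate numbers were taken from the sample labels. The authors trimmed reads, aligned them to mm10 with HISAT2, removed duplicates and deposited raw read counts per gene from featureCounts 1.5.3, without normalization or strand. Even values made up 56.9% to 60.8% of the counts from 1 to 20, so mates appear to have been counted separately, which overstates the precision of low counts. Totals were 21554249 to 28440227 per library.

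The quasi-likelihood test of edgeR 4.0.16 (R 4.3.3) was run on TMM-scaled counts of genes passing its filter at a minimum count of 10, with Benjamini-Hochberg adjustment over all 16723. The paper's methods name DESeq2, here an alternative (1.42.0) beside limma-voom (3.58.1), other normalizations, no filter, covariates for the replicate number, age and reads on Y-linked genes, 4 libraries without such reads, and each library left out. Isozyme shares used CPM per kb and an exact permutation test. Scripts were tested on counts simulated gene by gene from edgeR's dispersion estimates, for genes that passed its filter. With 200 genes changed 2-fold (means of 3 draws), edgeR recovered 41.8% of them, and 5.94% of its calls were false. DESeq2 recovered 56%, and 22.9% of its calls were false, at the same adjusted threshold. Replicate numbers belong to different mice, and deviations of same-numbered libraries correlated at -0.32, 0.25 and -0.54, so they were not taken as pairs.

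The 36 genes and all lists were chosen with earlier results of these data known. Genes of the lists were named at an adjusted p under 0.05 or an unadjusted p under 0.01. Pathway genes were given library by library where the adjusted p was under 0.05, the groups did not overlap or the gene was among the 12 highest per kb. Library values of *Hk2* and *Gapdh*, some of the shares and single ratios were added after the values were seen. Shared 50-base stretches were found in GENCODE M21 transcripts, and promoters are from RefSeq, which gave 35 of the 36 genes (not *Slc2a3*).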

Additional observations from a re-analysis of the deposited data

How the results depend on the processing

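With 3 mice per group and libraries that stood apart, small differences in single genes could not be settled, and no gene of the pathway passed the adjusted threshold in edgeR under any normalization, without the filter, with age as a covariate, in limma-voom, or with any library left out. DESeq2 called 2 pathway genes, *Slc16a1* and *Slc16a3*, where 2.09% of the genes given an adjusted p were called. The covariate for Y-linked reads gave 1, *Slc16a1*, where 2.53% of all genes were called. In the simulated counts with 2-fold changes, 22.9% of the DESeq2 calls were false, against 5.94% for edgeR, which recovered 41.8% of the changed genes. Those counts were drawn with edgeR's own dispersion estimates, for genes past its filter and without the Y-positive pair. DESeq2 was run on 22272 genes of the data, so these shares need not hold for its calls there. Low counts limit *Slc16a3*, *Slc2a3* and *Egln3*, and *Eno1*, *Gapdh*, *Pgk1* and *Pgam1* share much of their sequence with other genes.

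Over all genes, 42 passed the adjusted threshold and 40 of them with a fold over 2. These counts were 67 and 62 without the filter, 423 and 142 with the covariate, 286 and 144 with DESeq2, 113 and 56 in the 4 libraries without such reads, and 28 and 26 with limma-voom. Leaving out AT2CTRL replicates 1, 2 and 3 gave 13, 6 and 7 genes, and AT2CAB replicates 1, 2 and 3 gave 63, 8 and 27, all of them with a fold over 2. The median log2 fold change of the 35 genes, -0.060, was 0.013 when scaled by the upper quartile and 0.070 by total counts alone, where the median of all genes moved to 0.064 and 0.12, 0.014 in the 4 libraries, and from -0.046 to 0.0087 with each library left out. Pathway genes at an unadjusted p under 0.05 numbered from 3 to 6 with a library left out, 3 without AT2CTRL replicate 2 (where 7.90% of all genes lay). Pathway genes without overlap were 16 in the 4 libraries, where 46.4% of all genes had none, and from 9 to 18 with a library left out, of which 18 was without AT2CAB replicate 1 (27.0% of all genes) and 14 without AT2CTRL replicate 1 (36%). With a replicate block, 41 genes and 0 pathway genes were called, and 5 had an unadjusted p under 0.05, against 7.32% of all genes.

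For the 27 named fold changes, 424 of 431 values under the alternatives that had an adjusted p kept their direction and side of the threshold. None of the 27 passed the threshold in the main test, so keeping the side meant staying uncalled. Size was not compared, and *Pfkfb3*, at 0.97 in the main test and 0.41 without AT2CAB replicate 3, counted as kept. DESeq2 gave no adjusted p for *Egln3*, and shares, which have no threshold, were compared in direction alone. The exceptions were *Hk2*, at -0.12 in the 4 libraries, with its share at -0.61 percentage points there, and with a library left out from -0.12 to 0.58 for the fold change and from -3.59 to 7.71 points for the share. *Gapdh* ran from -0.018 to 0.78 with a library left out. Those that passed the threshold were *Slc16a1* with DESeq2 and with the covariate, *Slc16a3* with DESeq2, and *Rora* with the covariate (adjusted p = 0.0497). The causes were not tested.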
